A study of Mus musculus with 28 samples.

Results

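The 10 genes described here encode brakes on signalling from the T cell receptor (TCR): the ubiquitin ligases Cblb, Cbl, Itch and Rnf128, the diacylglycerol kinases Dgka and Dgkz, the adaptor Sla, and the phosphatases Ubash3a, Ubash3b and Ptpn22. They were chosen by symbol, and all 10 had a row among the 25124 genes of the deposited table. CD4+ T cells came from the lamina propria of the small intestine, sorted as live cells with CD45, CD90.2, TCRb and CD4 on their surface, from mice that carry the T-bet-ZsGreen allele, a fluorescent reporter of the transcription factor T-bet, which all 4 groups share. Some mice were kept specific-pathogen-free (SPF) and so had gut microbes, and others were raised germ-free (GF). Treatment was anti-CD3 (aCD3), an antibody that binds the signalling chains of the TCR complex, or its isotype control. There were 6 libraries each of SPF isotype, of SPF aCD3 and of GF aCD3, and 10 of GF isotype. GF aCD3 held 1 female and 5 male libraries, and the other groups held equal numbers of both. The age of the mice, the dose and the time after injection were not used here. The labels do not say whether each library came from its own animal, so the p-values measure the spread between these libraries.

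When a TCR binds its ligand, the kinases Lck and Zap70 phosphorylate the scaffold Lat, phospholipase C gamma then makes diacylglycerol, and this lipid activates Ras through Rasgrp1 and protein kinase C theta. Brakes act at each step: phosphatases remove phosphate from Lck and Zap70, diacylglycerol kinases turn diacylglycerol into phosphatidic acid, and E3 ubiquitin ligases mark receptors and signalling proteins for removal or block their contacts. Several of them are known from anergy, a state in which T cells that were triggered without costimulation stop responding, and loss of some of them in mice leads to autoimmunity.

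The libraries held 6765526 to 17861104 reads in genes, recovered from the deposited TPM (length-scaled abundance, a share of a library's total). Reads for Rnf128 numbered 28 to 266 per library, and the other brakes had at least 268 in every library. Summed TPM of 6 CD4 T cell markers ran from 1223 to 1436 in SPF isotype and from 1272 to 1450 in SPF aCD3, and from 1391 to 1598 across the GF libraries, so the sorted cell type was present in each. The table's column names carry sample numbers whose meaning is not stated. They are 1 to 6 for SPF isotype, 7 to 12 for SPF aCD3 and later for GF, so neither treatment in SPF mice nor colonisation can be told apart from them. The GF libraries fall into a first run of sample numbers, 25 to 33, and a second, 48 to 54. Of the 6 libraries labelled GF aCD3, F1, M3 and M4 had the activation marker Lag3 within the range of GF isotype, so whether these labels are right is in doubt. They remain in every GF aCD3 value, and GF counts are also given leaving out each library. The median of all 12182 genes tested moved by -0.35 on the log2(TPM + 1) scale between SPF isotype and SPF aCD3, and by -0.01 after scaling by median of ratios. Values below are on the deposited scale. For the brakes, the second scaling is given where it turns a call or moves a called value by more than 1.5 times. For other genes of the pathway, calls in SPF mice are counted under both scalings, and sizes are on the deposited scale unless stated. In a bulk sample, fewer cells of a type and less RNA per cell cannot be told apart.

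The brakes lie on 8 chromosomes of build mm10. The ligase genes are Cblb (chr16:52031549-52208046, plus strand), Cbl (chr9:44149262-44234046, minus strand), Itch (chr2:155133481-155226855, plus strand) and Rnf128 (chrX:139610620-139673145, plus strand). Sla lies at chr15:66780819-66831829, minus strand, and the phosphatase genes are Ubash3a (chr17:31208066-31242403, plus strand), Ubash3b (chr9:41013626-41079506, minus strand) and Ptpn22 (chr3:103859795-103912252, plus strand). Dgka (chr10:128720136-128744076, minus strand) and Dgkz (chr2:91932827-91950348, minus strand) complete the set. Exons made up from 5.54% of the span in Rnf128 to 35.8% in Dgkz, so most of the counted bases of each are intronic.

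Under isotype in SPF mice, the 10 brakes spanned a wide range of level. TPM here is per base of the whole gene span, introns included. Ptpn22 stood highest at 154 ± 23.7 TPM (mean ± SD, n = 6), and Sla followed at 65.4 ± 6.199. Dgka (38.1 ± 2.06), Cblb (36.3 ± 8.41) and Ubash3a (32.2 ± 3.76) came next, with overlapping ranges. Dgkz stood at 23.8 ± 1.82, and Itch (17.3 ± 2.76) and Cbl (16.8 ± 2.48) lay within each other's spread. Ubash3b (3.903 ± 0.849) and Rnf128 (1.14 ± 0.218) were the lowest.

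**Figure D1:**
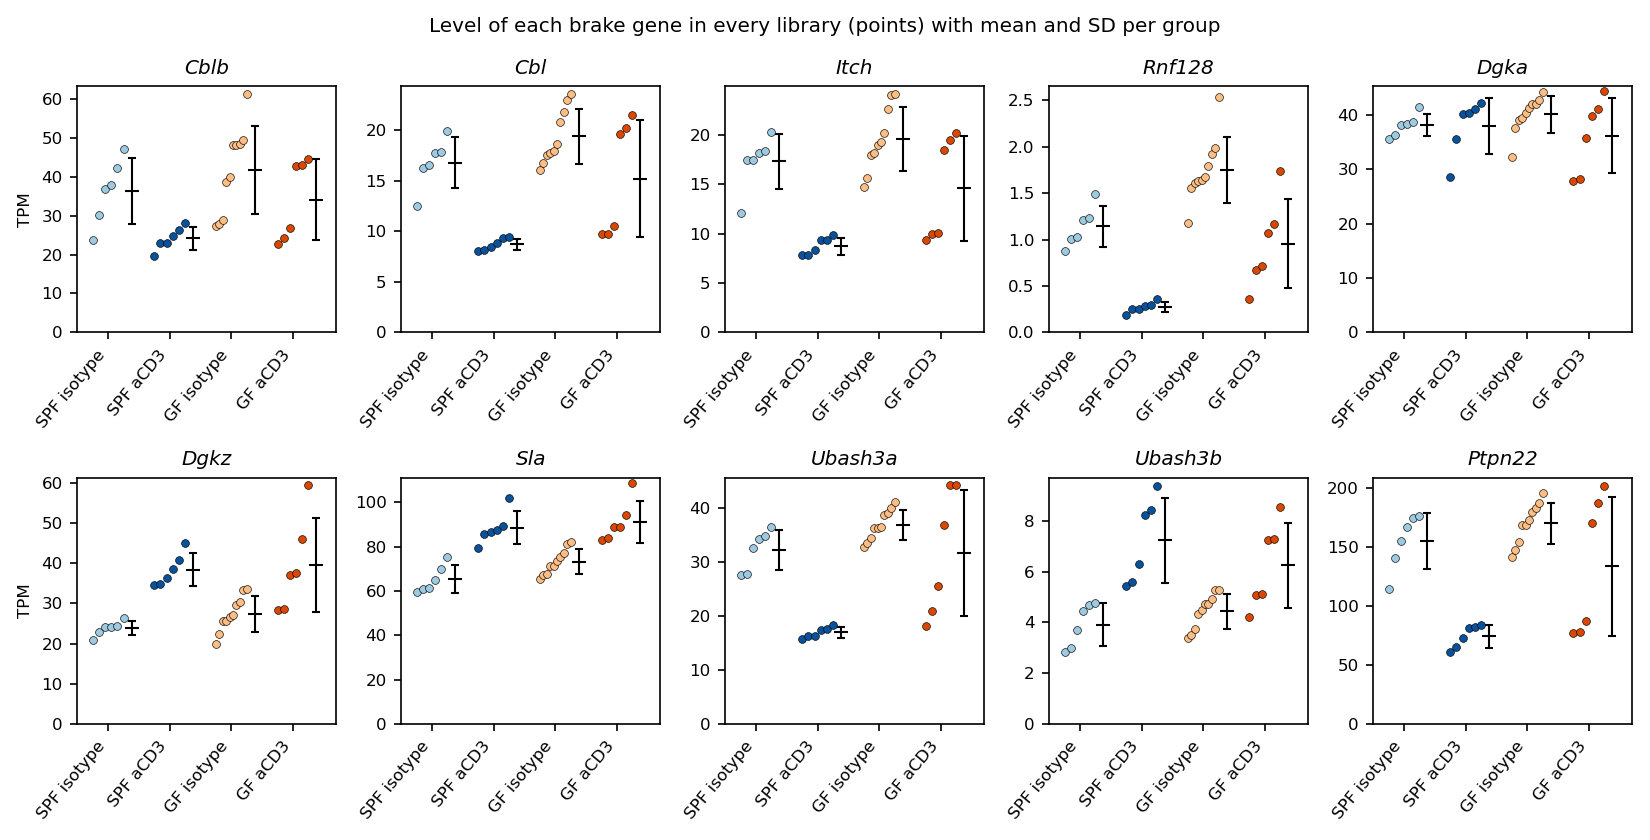
Level of each of the 10 brake genes in TPM (linear axis from 0). Each point is a library, and the bar beside each group is the mean with its SD (n = 6, 6, 10 and 6). Cbl, Itch, Rnf128, Ubash3a and Ptpn22 were lower in all 6 SPF aCD3 libraries than in any SPF isotype library, and Dgkz, Sla and Ubash3b were higher.

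Anti-CD3 in SPF mice split the brakes into groups that moved opposite ways. Group means of Ptpn22, Itch, Cbl, Ubash3a and Rnf128 fell to between 0.239 and 0.526 of the isotype mean, whereas those of Ubash3b, Dgkz and Sla rose to between 1.35 and 1.85 times it. In all, 9 of 10 brakes passed the test (limma, Benjamini-Hochberg adjusted p under 0.05), 3 higher and 6 lower, where 64.8% of all genes tested passed. With so many genes called, the count is not a result about the brakes. The median difference over the 10 was -0.65, against -0.35 over all genes. After scaling by median of ratios, 9 of 10 also passed, where 7302 of 12182 genes did. Cblb left the lower ones and Dgka joined the higher ones, which gave 4 higher and 5 lower. The sizes moved too: Cbl was at -0.48, Itch at -0.51, Ubash3a at -0.48, Dgkz at 1.07, Sla at 0.85 and Ubash3b at 1.11 after that scaling, each past the threshold. Among all genes called, 21.9% were higher on the deposited scale and 51.04% after that scaling.

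**Figure D2:**
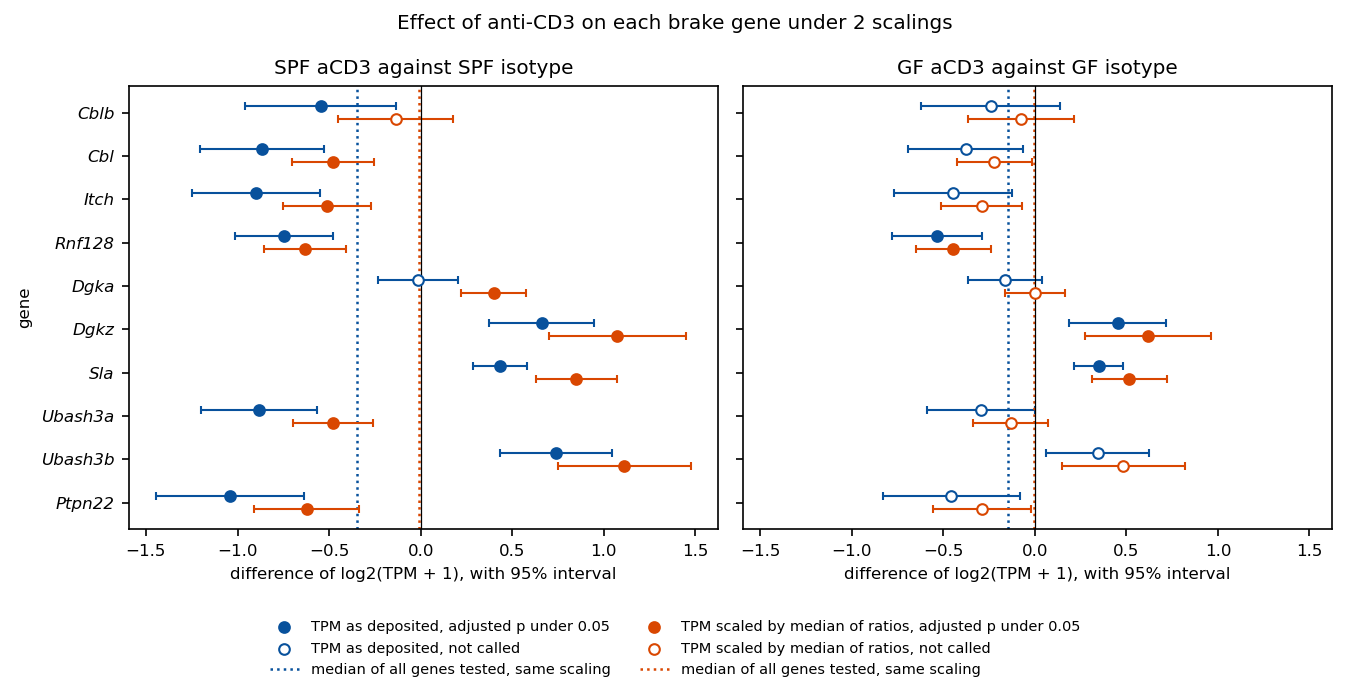
Difference of log2(TPM + 1) between anti-CD3 and isotype for each brake gene (points, with 95% intervals), in SPF mice on the left and GF mice on the right. Blue shows TPM as deposited and orange the same after scaling by median of ratios; filled points passed an adjusted p of 0.05, and dotted lines mark the median of all genes tested under each scaling. In SPF mice Cblb passed only on the deposited scale and Dgka only after scaling.

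Among the ligases, Cbl, which ubiquitinates activated receptors and their kinases, stood in SPF isotype at 12.5 TPM at the lowest, 17.1 at the median and 19.9 at the highest. In SPF aCD3 it stood at 8.05 TPM at the lowest, 8.63 at the median and 9.42 at the highest. The groups did not overlap, and the difference was -0.87 (standard error 0.16, adjusted p = 8.42e-05) on the log2(TPM + 1) scale. Its paralog Cblb, which sets the need for costimulation through Cd28, ran from 23.7 to 47.1 TPM (median 37.3) in SPF isotype and from 19.7 to 28.1 TPM (median 23.9) in SPF aCD3. The Cblb groups overlapped, with 3 of 6 aCD3 libraries below every isotype library. Its difference was -0.54 (standard error 0.20, adjusted p = 0.0198), and -0.14 (standard error 0.15, adjusted p = 0.455) after scaling by median of ratios. Without SPF isotype M3 the adjusted p of Cblb was 0.0621, and without SPF aCD3 F3 it was 0.0543.

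Itch, a ligase of the HECT class that acts on Junb, ranged from 12.1 to 20.3 TPM (median 17.8) in SPF isotype and from 7.82 to 9.83 TPM (median 8.82) in SPF aCD3. All 6 aCD3 libraries lay below the lowest isotype library, F3, and Itch fell by 0.90 (standard error 0.17, adjusted p = 8.27e-05). Rnf128, also called GRAIL, a membrane-bound ligase known from anergic T cells, ranged from 0.876 to 1.495 TPM (median 1.12) in SPF isotype and from 0.191 to 0.361 TPM (median 0.2695) in SPF aCD3, which was 95 to 142 reads against 28 to 38. These groups did not overlap either, and the difference was -0.75 (standard error 0.13, adjusted p = 3.44e-05). The ratio of its mean TPM was 0.239, more extreme than the fitted value shows, since the added 1 shrinks changes of low genes. Summed TPM of 6 epithelial markers was 5.295 to 22.2 in SPF isotype and 5.07 to 11.5 in SPF aCD3, and that of 7 B and plasma cell markers was 95.8 to 272 and 2.55 to 8.82. Whether such cells carried part of the Rnf128 signal, or of any other brake that fell, was not tested.

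The diacylglycerol kinases Dgka and Dgkz did not move together. Dgkz, which limits Ras activation downstream of the TCR, ranged from 20.9 to 26.4 TPM (median 24.2) in SPF isotype and from 34.7 to 45.2 TPM (median 37.5) in SPF aCD3, with no overlap. It rose by 0.66 (standard error 0.14, adjusted p = 2.41e-04). Dgka, known from anergic and naive T cells, ranged from 35.6 to 41.4 TPM (median 38.3) in SPF isotype and from 28.5 to 42.2 TPM (median 40.2) in SPF aCD3. The Dgka groups overlapped and differed by -0.015 (standard error 0.11, adjusted p = 0.907), with a 95% interval of -0.24 to 0.20. Relative to the median of all genes it was higher: scaling by median of ratios gave 0.40 (standard error 0.0851, adjusted p = 3.04e-04). Their promoters at the starts used in the table are shown because the enzymes share a reaction while their transcripts moved differently. Each runs from 250 bases before to 50 after the start (RefSeq, GRCm38.p6, the build also called mm10). Capitals mark GGAAA, the core of sites for NFAT, a factor that the TCR activates through calcium, or its reverse complement TTTCC. The windows are chr10:128744027-128744326, minus strand, for Dgka and chr2:91950299-91950598, minus strand, for Dgkz.
Dgka: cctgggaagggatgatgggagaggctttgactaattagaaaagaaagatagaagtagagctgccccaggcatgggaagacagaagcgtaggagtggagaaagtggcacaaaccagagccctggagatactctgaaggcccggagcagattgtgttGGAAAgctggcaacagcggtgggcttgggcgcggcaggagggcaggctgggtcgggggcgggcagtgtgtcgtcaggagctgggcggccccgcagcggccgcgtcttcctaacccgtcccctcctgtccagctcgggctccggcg
Dgkz: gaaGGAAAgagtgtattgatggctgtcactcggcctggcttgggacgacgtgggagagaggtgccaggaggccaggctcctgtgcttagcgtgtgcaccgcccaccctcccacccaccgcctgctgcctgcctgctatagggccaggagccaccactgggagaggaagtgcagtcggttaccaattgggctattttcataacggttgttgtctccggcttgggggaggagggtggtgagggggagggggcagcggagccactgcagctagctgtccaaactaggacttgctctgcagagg
Each holds a single GGAAA. RefSeq lists further starts, which are not shown. A Dgka start upstream of the row's span has 3 matches, 2 Dgka starts inside the span have 0 and 2, and a Dgkz start upstream of the row's span has 0.

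Sla, an adaptor that brings Cbl to the TCR complex and lowers TCR on the surface, ranged from 59.6 to 75.4 TPM (median 63.1) in SPF isotype and from 79.5 to 102 TPM (median 87.2) in SPF aCD3. Every aCD3 library lay above every isotype library, and Sla rose by 0.43 (standard error 0.0712, adjusted p = 2.05e-05). Sla lies whole within the gene Tg on the opposite strand, with 51011 shared bases. Tg, which encodes the thyroid protein thyroglobulin, held 227810 reads over the 28 libraries and Sla 198230. Use of strand in counting is not stated in the sources used here, so reads of the pair cannot be told apart.

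The phosphatases split as well. Ptpn22, which dephosphorylates Lck and Zap70 and is a risk gene for autoimmune disease, ranged from 114 to 176 TPM (median 161) in SPF isotype and from 60.6 to 84.02 TPM (median 77.1) in SPF aCD3. The groups did not overlap and the difference was -1.04 (standard error 0.20, adjusted p = 7.86e-05), the lowest of the 10 on the log2(TPM + 1) scale. As a ratio of mean TPM, Ptpn22 stood at 0.481 and Rnf128 lower, at 0.239. After scaling by median of ratios its difference was -0.62, against -0.63 for Rnf128. Ubash3a, a T cell phosphatase-like protein with a ubiquitin-binding domain, ranged from 27.5 to 36.4 TPM (median 33.4) in SPF isotype and from 15.7 to 18.4 TPM (median 16.9) in SPF aCD3. It fell by 0.88 (standard error 0.15, adjusted p = 3.74e-05) and its groups did not overlap. Its paralog Ubash3b, the more active phosphatase towards Zap70, ranged from 2.84 to 4.76 TPM (median 4.07) in SPF isotype and from 5.45 to 9.38 TPM (median 7.26) in SPF aCD3. Ubash3b rose by 0.74 (standard error 0.15, adjusted p = 1.48e-04), also without overlap.

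The promoters of Ubash3a and Ubash3b are shown because these paralogs moved in opposite directions. The windows, of the same length and source as above and with the same capitals, are chr17:31207816-31208115, plus strand, for Ubash3a and chr9:41079457-41079756, minus strand, for Ubash3b.
Ubash3a: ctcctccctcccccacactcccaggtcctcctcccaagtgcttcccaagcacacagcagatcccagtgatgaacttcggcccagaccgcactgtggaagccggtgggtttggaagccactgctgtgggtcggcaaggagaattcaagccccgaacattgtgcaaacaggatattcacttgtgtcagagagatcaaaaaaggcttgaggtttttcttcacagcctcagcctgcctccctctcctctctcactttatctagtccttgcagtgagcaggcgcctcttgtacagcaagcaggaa
Ubash3b: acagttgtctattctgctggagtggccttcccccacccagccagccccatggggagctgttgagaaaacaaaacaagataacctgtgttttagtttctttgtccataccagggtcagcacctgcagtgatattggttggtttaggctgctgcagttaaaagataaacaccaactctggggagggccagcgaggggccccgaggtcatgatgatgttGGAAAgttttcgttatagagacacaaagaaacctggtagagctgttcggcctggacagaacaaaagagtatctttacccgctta
The Ubash3a window holds no GGAAA and that of Ubash3b holds 1. A further Ubash3b start upstream of the row's span has 3. A promoter at the start used in the table was found for 8 of the 10 brakes. GGAAA on either strand occurred in 6 of these 8, and in 61.3% of all 32851 mouse promoter windows of that length. TGANTCA, the site of AP-1, another factor that the TCR activates, occurred in 0 of 8, and in 7.81% of all windows. A match is a run of letters, not a shown site.

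Paralogs were compared by their TPM ratio within each library, and tests used the ratio of (TPM + 1), whose size depends on the added 1 where a gene is low. Ubash3a exceeded Ubash3b in every library, but by less under anti-CD3 in SPF mice. The TPM ratio of Ubash3a to Ubash3b was 6.86 at the lowest, 8.53 at the median and 9.700 at the highest in SPF isotype, and 1.75 at the lowest, 2.45 at the median and 3.23 at the highest in SPF aCD3. The ranges did not overlap, and the mean log2 ratio of (TPM + 1) differed by -1.62 (exact permutation p = 0.002165, adjusted p = 0.01299). This p is the smallest that 924 arrangements of 6 against 6 libraries can give, and adjustment is over 12 tests of 3 pairs in 4 comparisons. With 0.1 or 5 added in place of 1, the difference was -1.79 and -1.21. In SPF aCD3 the TPM ratio was 2.93 to 3.23 in the 3 female and 1.75 to 1.98 in the 3 male libraries. The ratio tests have no sex term, and GF aCD3 holds 1 female library, so GF values near the threshold compare groups of unequal sex. The ratio of Dgka to Dgkz was 1.45 at the lowest, 1.59 at the median and 1.74 at the highest in SPF isotype and 0.821 at the lowest, 0.993 at the median and 1.16 at the highest in SPF aCD3, from an excess of Dgka in every isotype library to values on either side of 1. In SPF aCD3 it was 0.821 to 0.893 in the 3 female and 1.09 to 1.16 in the 3 male libraries. The difference was -0.68 (exact permutation p = 0.002165, adjusted p = 0.01299), and all 6 aCD3 libraries lay below the isotype range. The ratio of Cblb to Cbl was 1.84 at the lowest, 2.09 at the median and 2.64 at the highest in SPF isotype and 2.44 at the lowest, 2.801 at the median and 3.02 at the highest in SPF aCD3, with a difference of 0.32 (exact permutation p = 0.0108, adjusted p = 0.02597) and 4 of 6 aCD3 libraries above the isotype range. With 5 added in place of 1 this difference was 0.18 and did not pass (adjusted p = 0.145).

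**Figure D3:**
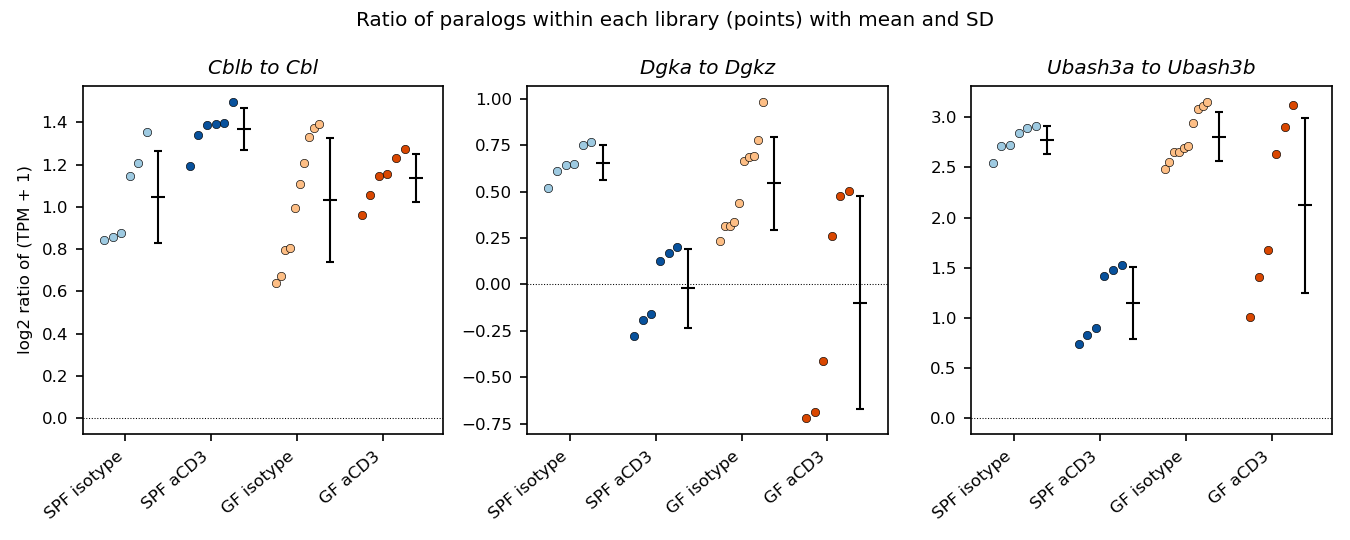
Log2 ratio of (TPM + 1) of 3 pairs of paralogs in each library (points), with the mean and SD of each group beside it; the dotted line marks equal levels. SPF aCD3 lies below SPF isotype without overlap for Dgka to Dgkz and for Ubash3a to Ubash3b, and the 6 GF aCD3 libraries spread over a wide range for these 2 pairs.

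The brakes differ in the length of DNA they span, and longer genes had lower differences in SPF mice. Among all genes tested, the median difference between SPF aCD3 and SPF isotype was -0.22 for the 4500 genes spanning under 10 kb and -0.66 for the 797 spanning 100 kb or more. The share called lower was 33.9% among the former and 80.4% among the latter. Cblb, the longest of the brakes at 176.5 kb, lay above the median of its class: 60.2% of genes of 100 kb or more had a lower difference. Cbl, Itch and Rnf128 lie in the class of 60 to 100 kb, whose median was -0.57, and had 25.9%, 23.3% and 35.6% of that class below them. Ubash3b is in the same class and had 97.5% below it. Ptpn22 and Ubash3a, in the class of 30 to 60 kb, had 9.26% and 14.97% of the class below them, and Sla 92.8%. Dgkz and Dgka, in the class of 10 to 30 kb, had 92.9% and 71.1% below them. The part of gene length in the falls was not tested.

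**Figure D4:**
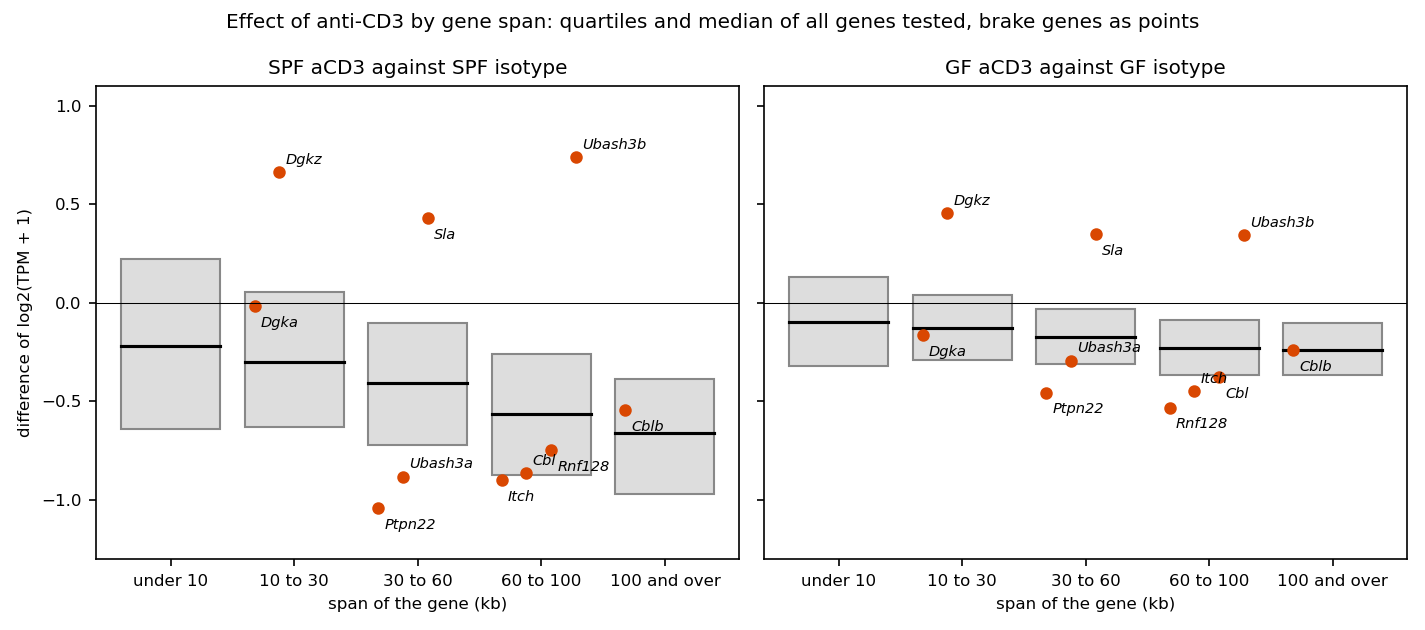
Difference of log2(TPM + 1) between anti-CD3 and isotype by the genomic span of the gene, in SPF mice on the left and GF mice on the right. Grey boxes run from the first to the third quartile of all genes tested in a span class, with the median as a black line, and orange points are the brake genes. In SPF mice the class medians go from -0.22 to -0.66 with span, and Dgkz, Sla and Ubash3b lie above the boxes of their classes while Ptpn22, Ubash3a and Itch lie below theirs.

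The 6 GF libraries given anti-CD3 differed widely among themselves. Lag3, an inhibitory receptor of activated T cells, ranged from 505 to 825 TPM in SPF aCD3 and from 9.496 to 18.5 in SPF isotype. In the 6 GF aCD3 libraries it was at 9.59 TPM in F1, 498 in M1, 452 in M2, 17.03 in M3, 12.3 in M4 and 527 in M5, against 5.41 to 18.5 in GF isotype. Ptpn22 was at 169.8 TPM in F1, 76.8 in M1, 77.4 in M2, 201 in M3, 187 in M4 and 87.2 in M5, against 142 to 195 TPM (median 170.4) in GF isotype. Ubash3a was at 36.9 TPM in F1, 25.5 in M1, 21.01 in M2, 44.2 in M3, 44.2 in M4 and 18.1 in M5, against 32.8 to 41.2 TPM (median 36.4). In M1, M2 and M5, Cblb, Cbl, Itch, Rnf128, Ubash3a and Ptpn22 were below every GF isotype library, and Dgkz, Sla and Ubash3b above every one. In F1, M3 and M4, by contrast, 1, 0 and 1 brakes lay below the isotype range, Rnf128 in both cases (by little in F1, at 1.168 TPM against 1.174 in the lowest isotype library), and 1, 5 and 2 above it. The share of all genes outside that range was not counted, so these counts cannot be set against a background. Sla was above the GF isotype range in all 6 libraries. The ligases showed the same spread. Cbl was at 21.5 TPM in F1, 9.71 in M1, 9.76 in M2, 19.6 in M3, 20.2 in M4 and 10.5 in M5, against 16.1 to 23.6 TPM (median 18.3) in GF isotype. Itch was at 19.5 TPM in F1, 9.93 in M1, 9.36 in M2, 20.2 in M3, 18.5 in M4 and 10.1 in M5, against 14.7 to 24.1 TPM (median 19.1), and Cblb at 42.7 TPM in F1, 22.8 in M1, 24.2 in M2, 44.6 in M3, 43.1 in M4 and 26.8 in M5, against 27.4 to 61.2 TPM (median 43.96). All of these were lowest in M1, M2 and M5. Rnf128 was at 1.17 TPM in F1, 0.716 in M1, 0.6700 in M2, 1.73 in M3, 1.07 in M4 and 0.363 in M5, lowest in M5. Of the genes that were higher in SPF aCD3, Dgkz was at 28.3 TPM in F1, 59.4 in M1, 46.1 in M2, 36.99 in M3, 28.7 in M4 and 37.5 in M5, and Ubash3b at 5.11 TPM in F1, 7.26 in M1, 7.29 in M2, 5.06 in M3, 4.21 in M4 and 8.54 in M5, against 3.397 to 5.296 TPM (median 4.61) in GF isotype. Dgkz was highest in M1 and Ubash3b in M5. Dgka was at 39.7 TPM in F1, 35.7 in M1, 28.3 in M2, 44.5 in M3, 41.1 in M4 and 27.9 in M5, against 32.2 to 44.1 TPM (median 40.9); M2 and M5 lay below that range and M3 above it. The proliferation gene Mki67 stood at 46.5 TPM in F1, 368 in M1, 447 in M2, 159.7 in M3, 67.6 in M4 and 311 in M5, against 32.7 to 118 TPM (median 91.4) in GF isotype, so that M3 lay above that range for Mki67 though not for Lag3. What sets these libraries apart was not tested, and they were not split in any test.

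**Figure D5:**
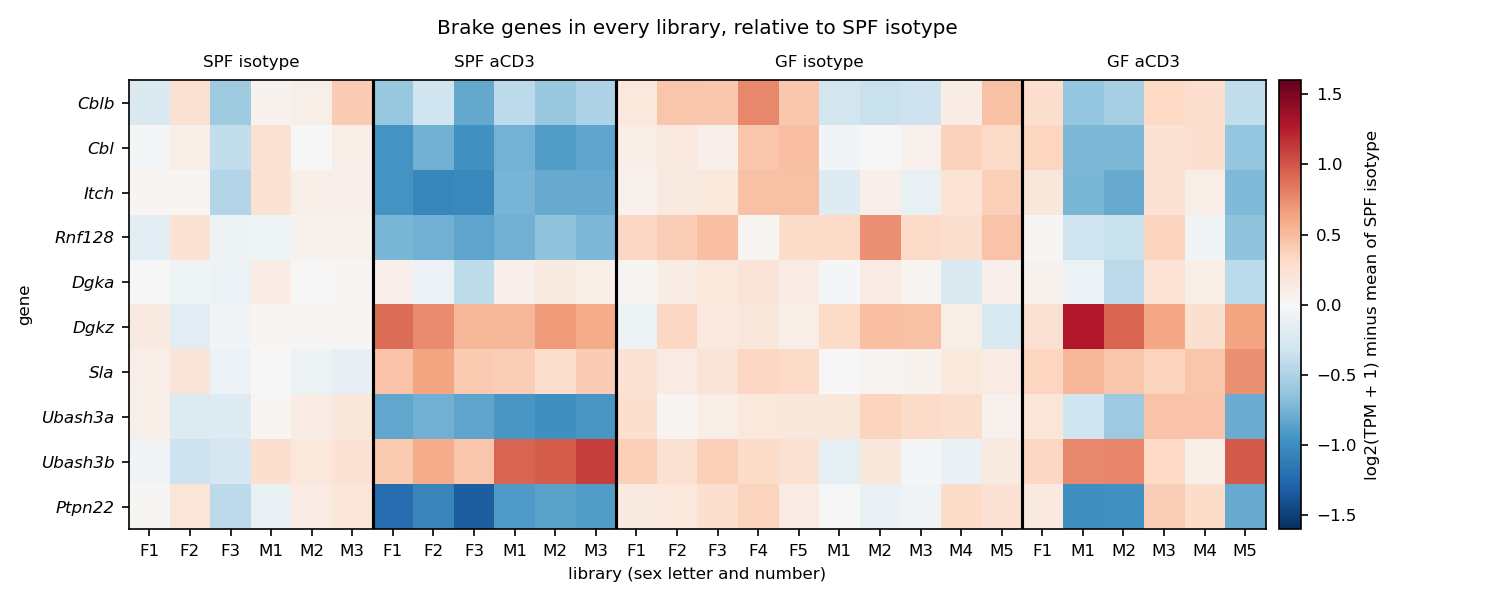
Brake genes (rows) in all 28 libraries (columns, by sex letter and number): log2(TPM + 1) minus the mean of SPF isotype, blue for lower and red for higher. GF aCD3 M1, M2 and M5 show the blue and red pattern of the SPF aCD3 libraries, and F1, M3 and M4 are closer to GF isotype.

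Over all 6 libraries, GF aCD3 against GF isotype passed for 3 of 10 brakes, where 7.08% of all genes tested passed. Of all genes called, 34.8% were higher on the deposited scale and 57.8% after scaling by median of ratios. That scaling left 2 brakes higher and 1 lower as before, where 1185 of 12182 genes passed. Sla ranged from 65.6 to 82.1 TPM (median 72.4) in GF isotype and from 82.9 to 109 TPM (median 88.8) in GF aCD3, without overlap, and rose by 0.35 (standard error 0.0657, adjusted p = 0.0482). Dgkz ranged from 19.9 to 33.6 TPM (median 26.8) and from 28.3 to 59.4 TPM (median 37.2) in these groups, with overlap, and rose by 0.45 (standard error 0.13, adjusted p = 0.0482). Rnf128 ranged from 1.17 to 2.54 TPM (median 1.65) and from 0.363 to 1.73 TPM (median 0.894), with 5 of 6 libraries below the isotype range, a difference of -0.53 (standard error 0.12, adjusted p = 0.0482). These adjusted p-values equal the smallest of any gene in the comparison, so the calls sit at the edge of the threshold. Without any single GF isotype library, or without GF aCD3 M1, M2 or M5, 0 of 10 passed and 0 of all genes tested (limma). Without F1, M3 or M4, 6, 8 and 8 passed, and the counts over all genes rose with them, to 3627 of 12148, 4215 of 12147 and 3861 of 12147. Of the other brakes, Itch differed by -0.45 (standard error 0.16, adjusted p = 0.0634), Ptpn22 by -0.46 (standard error 0.18, adjusted p = 0.0841), Cbl by -0.38 (standard error 0.15, adjusted p = 0.0858), Ubash3b by 0.34 (standard error 0.14, adjusted p = 0.0849) and Ubash3a by -0.29 (standard error 0.14, adjusted p = 0.139). Cblb and Dgka had adjusted p-values of 0.345 and 0.2295. The median over the 10 was -0.27, against -0.15 over all genes.

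Within a run of sample numbers fewer libraries stand behind each value. Sla differed by 0.41 in the first run (3 against 6 libraries) and 0.27 in the second (3 against 4). Dgkz differed by 0.53 and 0.35, Rnf128 by -0.55 and -0.48, and Ptpn22 by -0.47 and -0.35. Itch differed by -0.35 and -0.48, Cbl by -0.41 and -0.35, Ubash3a by -0.43 and -0.20, Ubash3b by 0.62 and 0.34, and Dgka by -0.15 and -0.10. Apart from Cblb, each brake kept its direction in both runs. Cblb differed by 0.056 in the first run and -0.34 in the second. In the first run 0 of 10 passed, where 0 of 11923 genes did and 1710 had an unadjusted p under 0.05. In the second 0 of 10 passed, where 1 of 11849 genes did.

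The paralog ratios in GF mice followed the same libraries. Dgka to Dgkz was 1.18 at the lowest, 1.49 at the median and 2.03 at the highest in GF isotype, and in GF aCD3 it was 1.40 in F1, 0.601 in M1, 0.613 in M2, 1.202 in M3, 1.43 in M4 and 0.745 in M5. The 3 libraries below 1, of which M1 and M2 belong to the first run and M5 to the second, lay below the isotype range and the other 3 inside it, and the log2 difference was -0.64 (exact permutation p = 0.00712, adjusted p = 0.0214). Leaving out GF aCD3 M1 raised the adjusted p to 0.0609, and leaving out GF isotype F1, F2, F3, F4, F5 or M5 gave 0.0503 to 0.0719. Ubash3a to Ubash3b was 6.49 at the lowest, 7.74 at the median and 11.2 at the highest in GF isotype and 7.22 in F1, 3.51 in M1, 2.88 in M2, 8.73 in M3, 10.5 in M4 and 2.12 in M5. This difference was -0.68 (exact permutation p = 0.0267, adjusted p = 0.0534), with 3 of 6 libraries below the isotype range. Without GF aCD3 F1, M3 or M4 its adjusted p was 0.0386, 0.0273 and 0.0217. For Cblb to Cbl it was 0.10 (exact permutation p = 0.416, adjusted p = 0.555).

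Between GF and SPF isotype libraries, 0 of 10 brakes passed limma's test at the adjusted threshold, where 7.17% of all genes did (89.5% of these higher in GF on the deposited scale and 33.2% after scaling by median of ratios). An unadjusted p under 0.05 was found for 2 brakes, Sla and Rnf128, and for 3110 of all 12182 genes. Rnf128 ranged from 1.17 to 2.54 TPM (median 1.65) in GF isotype against 0.876 to 1.495 TPM (median 1.12) in SPF isotype, with 9 of 10 GF libraries above the SPF range, and differed by 0.36 (standard error 0.12, adjusted p = 0.0587). Sla differed by 0.16 (standard error 0.0636, adjusted p = 0.116). The other 8 differed by 0.068 to 0.20, all in the direction of GF, where the median of all genes was 0.15. The 95% interval of the difference was -0.22 to 0.50 for Ptpn22, -0.11 to 0.43 for Ubash3b and -0.19 to 0.55 for Cblb. After scaling by median of ratios, 0 of 10 passed as well, where 199 of 12182 genes did, and Dgka and Ptpn22 were then slightly lower in GF.

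Under anti-CD3, 6 of 10 brakes were higher in GF than in SPF mice and 0 lower, where 53.3% of all genes passed and the median of all genes was 0.34. Of all genes called, 91.6% were higher in GF on the deposited scale and 48.3% after scaling by median of ratios. The comparison uses the same anti-CD3 libraries as those above. Cbl ranged from 9.71 to 21.5 TPM (median 15.1) in GF aCD3 and was higher by 0.69 (standard error 0.17, adjusted p = 0.00231). All 6 libraries lay above the highest SPF aCD3 library (9.42 TPM). M1 (9.71), M2 (9.76) and M5 (10.5) lay near it, whereas F1, M3 and M4 stood at 19.6 to 21.5. Rnf128 was higher by 0.57 (standard error 0.13, adjusted p = 0.00163), above the SPF aCD3 range in M1, M2, M3, M4 and F1, while M5 (0.363 TPM, 34 reads) was level with the highest SPF aCD3 library (0.361 TPM, 38 reads). Ubash3a was higher by 0.78 (standard error 0.16, adjusted p = 7.34e-04), Ptpn22 by 0.73 (standard error 0.20, adjusted p = 0.00487) and Itch by 0.62 (standard error 0.18, adjusted p = 0.00556), with 1 GF library inside the SPF range for Ubash3a and Itch and 2 for Ptpn22. Cblb was higher by 0.49 (standard error 0.21, adjusted p = 0.0481) and passed in only 4 of the 12 fits that left out a library, those without SPF aCD3 M1 or GF aCD3 M1, M2 or M5. Sla, Dgkz, Dgka and Ubash3b did not pass, with adjusted p-values of 0.3698, 0.879, 0.553 and 0.186. After scaling by median of ratios, 3986 of 12182 genes passed. Cbl passed as higher at 0.31 (standard error 0.11, adjusted p = 0.0372), Rnf128 at 0.44 (standard error 0.11, adjusted p = 0.00582) and Ubash3a at 0.39 (standard error 0.11, adjusted p = 0.0113). Dgka passed as lower at -0.48 (standard error 0.0873, adjusted p = 5.91e-04), Sla at -0.33 (standard error 0.11, adjusted p = 0.0264) and Ubash3b at -0.60 (standard error 0.18, adjusted p = 0.0159). Ptpn22, Itch and Cblb no longer passed under that scaling, at 0.32 (standard error 0.14, adjusted p = 0.0849), 0.24 (standard error 0.12, adjusted p = 0.123) and 0.088 (standard error 0.16, adjusted p = 0.691), and Dgkz was at -0.43 (standard error 0.19, adjusted p = 0.0753). The log2 ratio of Cblb to Cbl differed between GF and SPF aCD3 by -0.23 (exact permutation p = 0.00649, adjusted p = 0.0214). With 5 added in place of 1 it was -0.13 (adjusted p = 0.0675), and without GF aCD3 M1 the adjusted p was 0.0520, so this call does not hold under either. The ratio of Ubash3a to Ubash3b differed by 0.97 (exact permutation p = 0.0325, adjusted p = 0.0557).

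The test of whether the antibody's effect differed between GF and SPF mice found 0 of 10 brakes with limma, where 3.48% of all genes passed. Of those, 70.05% had a higher effect in GF on the deposited scale and 44.2% of those called after scaling by median of ratios. Ubash3a came nearest, with a difference of effects of 0.59 (standard error 0.21, adjusted p = 0.0767). Ptpn22 followed with 0.59 (standard error 0.27, adjusted p = 0.134) and Cbl with 0.49 (standard error 0.22, adjusted p = 0.135). These 3 of 10 had an unadjusted p under 0.05, as did 3911 of all 12182 genes. After scaling by median of ratios, Dgka passed, at -0.40 (standard error 0.12, adjusted p = 0.0341), where 1423 of 12182 genes passed, against 424 on the deposited scale. Without GF aCD3 M1, M2 or M5, or without SPF isotype F3, 1, 2, 1 and 1 brakes passed on the deposited scale, where 2056, 2491, 3187 and 2083 of all genes did.

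Other genes of the pathway were taken from 4 lists. Of 36 other brakes on TCR signalling, 35 were tested and 23 fell with anti-CD3 in SPF mice, with 0 higher and a median of -0.63, against -0.35 over all genes. That count is near the 64.8% of all genes that passed. Sit1, a membrane adaptor that binds phosphatases, fell the most, with mean ± SD (n = 6 in each group) from 112 ± 18.4 TPM in SPF isotype to 28.7 ± 6.11 in SPF aCD3, a difference of -1.93 (adjusted p = 8.29e-06). Cish, which inhibits phospholipase C gamma, differed by -1.59 (adjusted p = 1.04e-05), and Spry2, an inhibitor of Ras signalling, by -1.40 (adjusted p = 0.00238). Of those that passed, the smallest differences were those of Ndfip1, an activator of Itch, at -0.30 (adjusted p = 0.00142), the phosphatase Ptpn2 at -0.45 (adjusted p = 0.00654) and the ligase Peli1 at -0.50 (adjusted p = 0.00105). After scaling by median of ratios, 10 of the list were higher and 16 lower, where 3727 and 3575 of all 12182 genes were. Ptpn2 and Peli1 did not pass under that scaling, and Ndfip1 was at 0.11 and did not pass. In GF mice, 3 of 35 were lower and 0 higher, where 7.08% of all genes passed.

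Of 8 other diacylglycerol kinases, 4 were tested in SPF mice and all 4 passed, where 64.8% of all genes did. Dgkh rose by 0.69 (adjusted p = 5.58e-04), from 2.73 ± 0.715 TPM in SPF isotype to 4.98 ± 0.871 in SPF aCD3. Dgke, Dgkq and Dgkd fell, at -1.36 (adjusted p = 7.49e-06), -0.76 (adjusted p = 3.23e-05) and -0.56 (adjusted p = 5.36e-04). In GF mice, where 7.08% of all genes passed, 1 of 4 was lower. Directions in SPF mice were the same under both scalings, with 1 higher and 3 lower. The median over the 4 there was -0.66 on the deposited scale and -0.31 after scaling by median of ratios.

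The proteins that the brakes act on were a list of 21, of which 20 were tested, 2 rose and 15 fell in SPF mice, with a median of -0.66. Of all 12182 genes, 64.8% passed there, 1726 higher and 6172 lower. Zap70, the kinase that Ubash3b and Ptpn22 dephosphorylate, rose by 0.51 (adjusted p = 3.34e-04), from 186 ± 23.6 TPM in SPF isotype to 265 ± 21.7 in SPF aCD3, and Cd3e, a chain of the TCR complex, by 0.19 (adjusted p = 0.0358). Junb, a target of Itch, fell by 2.33 (adjusted p = 5.06e-06), from 7110.5 ± 757 TPM in SPF isotype to 1414 ± 102 in SPF aCD3. Rasgrp1, which diacylglycerol activates, differed by -2.20 (adjusted p = 2.29e-06). Cd28, the costimulatory receptor, had the smallest of the falls that passed, at -0.46 (adjusted p = 0.00536). With the second scaling, 5 were higher and 11 lower, where 3727 and 3575 of all genes were, and Cd28 did not pass. In GF mice, 1 was higher and 1 lower, where 7.08% of all genes passed. Of 10 transcription factors linked to anergy, 7 fell and 0 rose in SPF mice, a count near that 64.8%, led by Nr4a3 at -2.39 (adjusted p = 6.77e-06), Nfatc2 at -1.31 (adjusted p = 3.10e-05) and Tox at -1.02 (adjusted p = 3.86e-05). The smallest falls that passed were those of Nr4a2 at -0.47 (adjusted p = 0.0429), Foxo1 at -0.57 (adjusted p = 0.002100) and Ikzf1 at -0.76 (adjusted p = 1.12e-04). Scaling by median of ratios left 4 lower and 1 higher, without Nr4a2 and Foxo1, and in GF mice 0 of 10 passed with limma.

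Over the 28 libraries, the brakes' patterns were compared by the root mean square (RMS) difference between centred log2(TPM + 1) values. Cbl and Itch were the closest pair, at 0.0943, and each also lay near Ptpn22 (0.162 for Cbl and 0.160 for Itch). Dgkz and Ptpn22 were the farthest apart, at 0.853, and Ubash3a and Ubash3b stood at 0.782. Among all genes tested, Kdm3b (0.0872), Acap2 (0.0894) and Gigyf2 (0.0909) were nearest to Cbl. Dock10 (0.0944), Sp4 (0.101) and Ankrd44 (0.106) were nearest to Ptpn22, and Osbpl9 (0.119), Ifngr1 (0.153) and Jakmip1 (0.165) to Cblb. Usp3 (0.0922) and Tbl1xr1 (0.0927) came before Cbl for Itch. Tg was nearest to Sla, at 0.0579, and shares its span. For Ubash3b the nearest were Qars (0.178), Chek2 (0.184) and Capn2 (0.186), and for Ubash3a they were Atxn2 (0.117), Ino80 (0.118) and Tle3 (0.128). For Dgkz they were Ddx11 (0.160), Aldh16a1 (0.173) and Lmf2 (0.180), for Dgka Armc10 (0.137), Sp100 (0.138) and Ppp2r5c (0.139, where Dgka itself varied by only 0.176 about its mean, against 0.479 for Cbl), and for Rnf128 Zfp622 (0.137), Tomm20 (0.147) and Lin7c (0.148). The libraries share group, depth and scaling, so a small difference describes likeness over these samples.

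Markers of other cells differed between the groups. Besides the B and plasma cell and epithelial markers, summed TPM of 5 NK and innate lymphoid cell (ILC) markers ran from 32.7 to 49.5 in SPF isotype and from 7.29 to 10.5 in SPF aCD3. Klrb1c and Klrk1 carried that sum, and Kit, also on the list, went the other way, from at most 1.39 to at least 3.94. The sum of 7 proliferation genes ran from 82.3 to 178 in SPF isotype and from 720 to 838 in SPF aCD3. The 6 stromal markers summed to 4.42 to 42.05 TPM in SPF isotype and 0.467 to 2.28 in SPF aCD3, and the 5 erythroid markers to 2.29 to 10.2 and 0.716 to 1.28, neither with overlap. The 2 CD8 T cell markers summed to 5.68 to 13.5 and 9.75 to 23.8, and to 61.2 in GF isotype M4, where the other GF isotype libraries were at most 8.54. Cd8a carried the SPF sums and that of M4, and reached 60.02 TPM in GF isotype. Cd8b1, the other marker, was at most 1.096 in SPF isotype, 1.862 in SPF aCD3 and 1.542 in GF isotype. The sum of 7 myeloid markers was at most 12.4 in SPF isotype and at least 57.8 in SPF aCD3, carried by Cd68 (54.4 to 106 in SPF aCD3), while each of the other 6, among them Csf1r, Adgre1 and Csf3r, was at most 2.72 in SPF aCD3. In GF aCD3 the 6 pancreatic acinar markers were highest in M3, at 474 TPM, followed by F1 at 86.55. The myeloid sum there was 45.2 in M1, 47.1 in M2 and 59.2 in M5, against 8.75 to 16.5 in F1, M3 and M4. That of NK and ILC markers was 9.96 to 10.8 in M1, M2 and M5 and 22.4 to 30 in F1, M3 and M4. The 7 B and plasma cell markers reached 114 in GF isotype, and in GF aCD3 were highest in M3, at 97.7, the library with 5 brakes above the isotype range. Their part in the brakes' differences was not tested.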

How the data were processed

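RNA of sorted CD4+ T cells was sequenced in 28 libraries as single reads, prepared with a total RNA kit per the series' design text, whereas the labels give polyA RNA. Which is right was not settled, and it bears on how many intronic reads each TPM holds. The deposited table gives TPM, which per the file headers the authors computed with HOMER's analyzeRepeats.pl over RefSeq transcripts of mouse build mm10, with the transcripts of a gene condensed. In 99.24% of rows the length equals the gene's whole span, so intronic reads count. The aligner's settings and use of strand are not given in the sources used here. Of the table's 54 value columns, 26 were matched to no sample here and were not used. Whole reads were recovered from TPM and length for 100% of values checked, within 0.1 read. No 2 of 378 pairs of libraries were identical.

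A gene was tested if 6 or more libraries had it at 1 TPM or above (12182 genes, all 10 brakes among them). The test was limma 3.58.1 (R 4.3.3) on log2(TPM + 1), which understates changes of low genes, with a mean per group, a sex term and a trend, over all 28 libraries, with Benjamini-Hochberg adjustment over all genes tested. A count model fits no TPM, so reads entered only an alternative (voom). Ratios of 3 pairs of paralogs were tested by two-sided exact permutation, with no sex term. Other steps ran in Python 3.11.15 (NumPy 2.4.6, pandas 2.3.3, matplotlib 3.10.9), and the tests were tested on simulated data.

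The 10 genes, lists and alternatives were chosen with earlier results of these data known. All 10 are reported. From 4 lists, the 3 highest and 3 lowest log2 fold changes past the threshold in SPF mice are named, except for a gene that is not reported here, and the rest are counted. The 3 nearest genes of each brake are named by RMS difference. Alternatives were the pseudocount, the filter, scaling by median of ratios or without the ribosomal RNA precursor Rn45s and histone genes, voom, the sex term, array weights, the libraries in the fit, the run of sample numbers, a replicate block and leaving out each library. The fits within each run of GF libraries were chosen after seeing the data. Shared replicate names did not pair libraries: deviations of same-named libraries correlated at -0.30 to 0.21, above 0.1 in 1 of 22 pairs.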

Additional observations from a re-analysis of the deposited data

Results flagged for a closer look

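Of 52 sets of values (10 brakes and 3 ratios in 4 groups), 1 had a library far from the rest by Dixon's criterion, where chance gives about 5%, or 2.6. Itch in SPF isotype F3 was 12.1 TPM, whereas the other 5 libraries of the group lay between 17.5 and 20.3. The same library was the lowest of its group for Cblb, Cbl, Dgka and Ptpn22. Without it, Itch differed between SPF aCD3 and SPF isotype by -1.001 (adjusted p = 2.77e-05).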

How the results depend on the processing

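In SPF mice the number of brakes called with anti-CD3, 9 of 10, was within 1.5 times in every alternative run (8 to 9 leaving out a library). The GF count of 3 was the least stable. It was 0 in either run of GF libraries alone, with a pseudocount of 0.1, with no filter, and with only the compared groups in the fit, 5 with no sex term or with run as a covariate, 7 with array weights, and 0 to 8 leaving out a library. The count over all genes (862) moved with it, to 0 or 1 where no brake was called, and to 2472, 2215 and 3636 for no sex term, run and array weights. Between GF and SPF under anti-CD3 (6), it was 4 with array weights or only the compared groups (3680 and 4586 of all genes, against 6496), 7 with voom (4353 genes), and 5 to 6 leaving out a library. Under isotype (0) it was 0 to 1 leaving out a library (322 to 987 of all genes, against 874). It was 2 under array weights or only the compared groups (1904 and 1812 genes). It was 1 with a pseudocount of 5, with run as a covariate or without Rn45s and histone genes (888, 1232 and 2390 genes). For the difference of effects (0) it was 0 to 2 leaving out a library (32 to 3187 of all genes, against 424). It was 1 under median of ratios or voom (1423 and 1626 genes).

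With a replicate block, 0 brakes were called in GF aCD3 against GF isotype and 0 in GF against SPF aCD3, where 0 and 2 of all 12182 genes were called. In paired form, ratio differences were -1.62 (Ubash3a to Ubash3b), -0.68 (Dgka to Dgkz) and 0.32 (Cblb to Cbl) in SPF mice, each with an adjusted p of 0.0938 by exact sign flips, -0.59 for Dgka to Dgkz in GF mice and -0.26 for Cblb to Cbl between GF and SPF aCD3, both at 0.167. The smallest p that sign flips can give is 0.03125 for the first 4 of these, with 6 pairs, and 0.125 for the last, with 4, so these p-values say little of stability. Under the block Dgkz between GF and SPF aCD3 was 0.094. Shared names do not pair these libraries.

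Signs turned where differences were small. Dgka in SPF mice was 0.40 under median of ratios, 0.25 without Rn45s and histones, 0.36 with voom, and -0.048 to 0.066 leaving out a library. Dgka in GF mice was 0.0015 under median of ratios, and between isotype groups -0.087, or -0.022 with voom, where Ptpn22 was -0.014 under median of ratios. Sla between GF and SPF aCD3 was -0.33 under median of ratios, -0.029 without Rn45s and histones and -0.24 with voom. Dgkz there was 0.12 with array weights, 0.16 with run as a covariate, and -0.14 to 0.073 leaving out a library. Cblb was 0.056 in the first GF run.

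With a pseudocount of 5, Cblb to Cbl was 0.18 in SPF mice (exact permutation, adjusted p = 0.145), -0.13 between GF and SPF aCD3 (0.0675) and 0.0042 between isotype groups. With 0.1, Ubash3a to Ubash3b in GF mice was -0.76 (0.04995). Leaving out a library gave ranges of -0.27 to -0.20 for Cblb to Cbl between GF and SPF aCD3 (adjusted p = 0.0520 without GF aCD3 M1) and -0.055 to 0.047 between isotype groups. For Dgka to Dgkz they were -0.76 to -0.52 in GF mice and -0.20 to 0.048 between GF and SPF aCD3. For Ubash3a to Ubash3b they were -0.88 to -0.46 in GF mice, 0.78 to 1.2 between GF and SPF aCD3 and -0.012 to 0.069 between isotype groups. Depth limits Rnf128, with 28 reads in its lowest library.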
